A study of Mus musculus with 8 samples.

Results

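The genes described are the amino acid, glucose and monocarboxylate carriers of the mouse, taken as 8 families of solute carrier genes by symbol. Members were all genes whose annotated symbol began with Slc1a, Slc2a, Slc3a, Slc6a, Slc7a, Slc16a, Slc38a or Slc43a followed by a number, each read by the probe set whose mean over the 8 arrays was highest. This gave 83 members among 18193 genes. Of these, 36 (43.4%) exceeded a filter level of 3.13 (log2), which is the 50th percentile of the deposited values, in 2 or more arrays and were tested. Of the symbols, 3 match the rule although they encode no carrier: Slc2a4rg-ps is a pseudogene, and Slc7a6os and Slc6a19os lie on the opposite strand of carrier genes. That leaves 80 carrier genes, of which 34 were tested.

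Levels were compared between T follicular helper (Tfh) cells and Th1, Th2 and Th17 cells, with 2 arrays in each of the 4 groups. Tfh cells were CXCR5+ CD4 T cells of C57BL/6 mice, whose age the labels leave out. They were sorted from the spleen 7 days after the mice were immunized with KLH (keyhole limpet hemocyanin, a foreign protein) and then given anti-CD3 for 4 h. The 3 other types were grown from naive CD4 T cells of spleen and lymph node, from OT-II T cell receptor transgenic mice on the C57BL/6 background aged 6 to 8 weeks. Those cells spent 5 days in RPMI-1640 with OT-II peptide and antigen-presenting cells. The Th1 cultures held IL-12 (10 ng/ml) and anti-IL-4, and the Th2 cultures IL-4 (10 ng/ml) and anti-IFNg. The Th17 cultures held IL-6 (20 ng/ml), TGFb, anti-IL-4 and anti-IFNg. Doses of the antibodies (10) and of TGFb (5) carry the unit mg/ml in the labels. Between Tfh and the cultured types, the T cell receptor repertoire, the source, the handling and the cell type changed together, so their shares in a difference cannot be told apart. The sort kept every CXCR5+ CD4 T cell, and cultures can keep some of their antigen-presenting cells. No label says whether the arrays of a group hold different animals or cultures, so p-values cover only the spread between these samples, which may be technical.

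A resting T cell takes up few nutrients, and T cell receptor signals and growth factors lead it to place carriers for glucose and amino acids in its membrane. The Slc2a genes encode the facilitative glucose carriers (GLUT) and their relatives, and Slc16a genes the monocarboxylate carriers (MCT) that pass lactate, with some members for other substrates. Amino acids enter through the Slc1a, Slc6a and Slc38a families, most of them driven by sodium, and through the Slc7a and Slc43a families. Slc3a genes encode heavy chains that bring Slc7a carriers to the surface, and some Slc38a carriers act in the lysosome, where amino acids are reported to the growth kinase complex mTORC1.

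Values in the arrays carry a shift between groups. The medians over all probe sets were 3.46 and 3.44 in Tfh and 3.04 to 3.08 in the 6 cultured arrays, and the 75th percentiles were 8.46 and 8.47 against 6.97 to 7.06. Over the 11178 tested genes the median difference between Tfh and the mean of the cultured types was 0.84 log2 units, and -0.17 after quantile normalization. All 9 measured T cell markers passed the filter level in every array, among them Cd3e and Cd4. Cxcr5, the sorting marker, stood at 11.25 and 11.20 in Tfh and at 3.34 to 8.12 in the cultured arrays. Ifng was highest in the Th1 arrays, Il4, Il5 and Il13 in the Th2 arrays and Il17a in the Th17 arrays. Bcl6 and Pdcd1 were highest in the Tfh arrays. Other lineage markers were shared between groups. Tbx21 was at 10.66 and 10.59 in Tfh and 10.89 and 9.43 in Th1. Gata3 was at 10.67 and 10.52 in Tfh and 10.44 and 11.13 in Th2. Il12rb2 was at 10.73 and 8.24 in Th1 and 8.71 and 9.29 in Th17. Neutrophil genes were measured in the Tfh arrays as well: all 8 markers passed the filter level in both Tfh arrays, where their summed linear signal was 72367 and 69530. This sum was 43.5 to 46.1 in 4 cultured arrays, with no marker above the filter level. It was 176 in Th17 replicate 1 (2 markers above) and 3745 in Th2 replicate 1 (6 markers above). In RNA from mixed cells, fewer cells of a type and less RNA per cell cannot be told apart.

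Members of every family were measured above the filter level, in unequal numbers. Tested members numbered 7 of 16 in Slc7a, 6 of 9 in Slc38a, 6 of 12 in Slc2a, 6 of 13 in Slc16a, 5 of 21 in Slc6a, 3 of 7 in Slc1a, 2 of 3 in Slc43a and 1 of 2 in Slc3a. The 47 others ranged from 1.82 to 3.64 over all arrays, with a median of 2.39; 41 of them were under the filter level in every array and 6 were above it in 1 array. Among them were Slc2a2 and Slc2a4, the glucose carriers known from liver and from muscle and fat, and Slc6a3 and Slc6a4, the dopamine and serotonin carriers. Also among them were the neutral amino acid exchangers Slc7a8 and Slc7a10. The filter was passed through the Tfh arrays alone by Slc1a3 and Slc2a9, and through the cultured arrays alone by Slc6a17, Slc6a2, Slc6a9 and Slc7a3, so these 6 could be tested only because their levels were unequal.

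**Figure D1:**
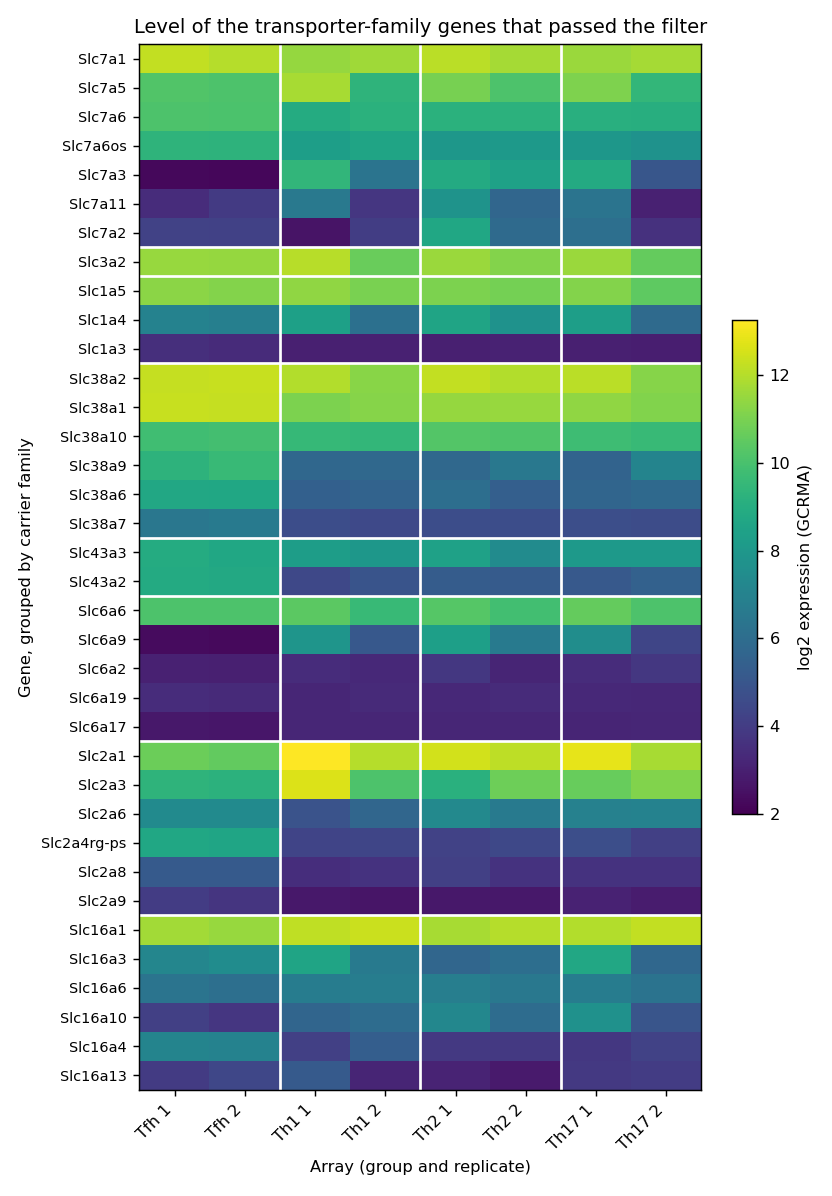
Level on the log2 scale (colour) of the 36 tested members (rows, by family) in each of the 8 arrays (columns, by group and replicate). Slc7a3 and Slc6a9 are dark in both Tfh arrays, Slc43a2 and Slc38a9 are brightest there, and Slc7a11 differs between the replicates of each cultured type.

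Compared with the mean of the cultured types, Tfh arrays were higher for several amino acid carriers of the Slc38a and Slc43a families and lower for the glucose carrier Slc2a1 and the amino acid carrier Slc16a10. A gene was called in limma when its adjusted p was under 0.05 and its log2 difference at least 1. By this rule 9 members were higher in Tfh, against 43.7% of all tested genes, and 4 were lower, against 6.66%, or 25% and 11.1% of the 36. Of the 9 higher members 7 encode carriers. Slc2a9 among the higher and Slc7a3 and Slc6a9 among the lower passed the filter only through the arrays where they were high, so they had to differ and support neither count. In all 4 scalings of the arrays (as deposited, shifted to a common median of all probe sets, shifted to a common median of the tested genes, and quantile normalized) 5 were higher, against 12.7% of all genes, and 4 were lower, against 6.63%. After quantile normalization the split was 5 higher and 9 lower, against 15.7% and 22.0%, with Slc2a3, Slc16a1, Slc16a6, Slc38a10 and Slc6a6 added to the lower calls. With arrays shifted to the median of all probe sets it was 7 and 4, against 32.4% and 11.0%, and with the median of the tested genes 5 and 12, against 14.8% and 28.9%. The median difference of the members was 0.32, against 0.84 for all genes, and -0.56 against -0.17 after quantile normalization. Because the other scalings move Tfh downward, they are a weak check of lower calls.

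**Figure D2:**
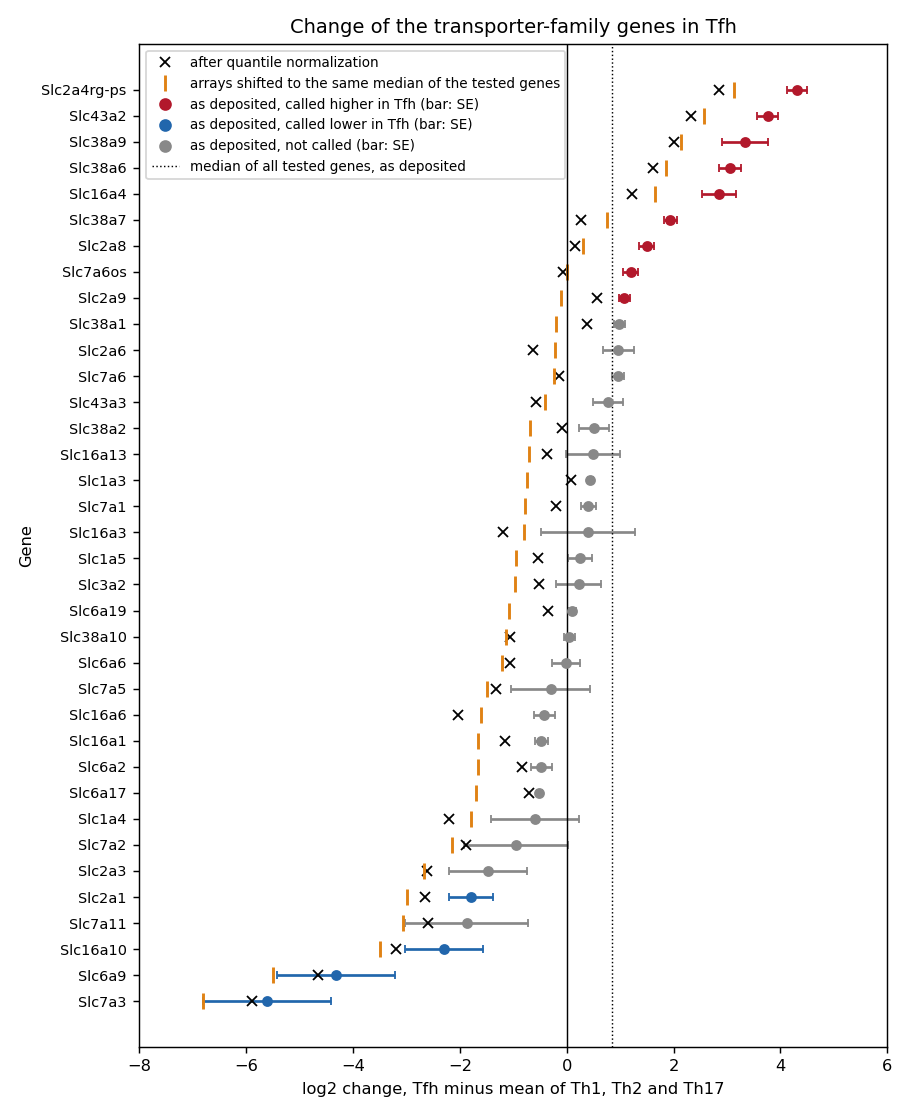
Difference between Tfh and the mean of Th1, Th2 and Th17 (log2) for the 36 tested members, as deposited (points, with the standard error), after quantile normalization (crosses) and with arrays shifted to the same median of the tested genes (vertical ticks); the dotted line is the median of all tested genes, 0.84. Slc43a2, Slc38a9, Slc38a6 and Slc16a4 stay above 0 in each of the 3, and Slc7a3, Slc6a9, Slc16a10 and Slc2a1 stay below 0.

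Among the glucose carriers, the Tfh arrays were lower for Slc2a1, which encodes GLUT1, the main glucose carrier of activated T cells. Its level was 10.72 and 10.54 in Tfh, 13.26 and 11.99 in Th1, 12.48 and 12.14 in Th2, and 12.86 and 11.80 in Th17. Both Tfh arrays lay below all 6 others, and replicate 1 was the higher one in each cultured type. The difference from the mean of the cultured types was -1.79 (SE 0.41, adjusted p = 0.00946 in limma), or 3.46-fold lower, and its 2 other probe sets gave -1.78 and -1.24. The call ended without Tfh replicate 1 (adjusted p = 0.0530), without Tfh replicate 2 (0.0690) and with the Tfh arrays averaged as 1 replicate (0.0605). In the 250 bases before the Slc2a1 start, shown because Slc2a1 is the glucose carrier that was called lower, the letters ACGTG, the core of the element that hypoxia-inducible factors bind, occur once, with both strands searched (capitals; RefSeq, GRCm38.p6, plus strand, chr4:119108495-119108744).
Slc2a1: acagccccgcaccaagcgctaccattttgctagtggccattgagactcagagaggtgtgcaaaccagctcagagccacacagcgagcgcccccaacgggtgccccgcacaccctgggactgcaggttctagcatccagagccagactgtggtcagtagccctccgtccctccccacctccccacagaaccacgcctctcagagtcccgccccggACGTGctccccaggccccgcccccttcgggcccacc

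Slc2a3, the gene of the high-affinity neuronal-type glucose carrier GLUT3, varied within the cultured types. It stood at 9.32 and 9.23 in Tfh, 12.66 and 10.12 in Th1, 9.15 and 10.77 in Th2, and 10.63 and 11.14 in Th17. Th2 replicate 1 lay below both Tfh arrays and the 5 others above them. The difference of -1.47 (SE 0.74) missed the threshold (adjusted p = 0.120), but was called without Th1 replicate 2 (-1.90, adjusted p = 0.0190), with the mean of all its probe sets (-2.70, adjusted p = 0.0231) and after quantile normalization (-2.62). Its 3 other probe sets gave -1.46, -4.48 and -3.38.

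The remaining tested Slc2a members were not lower in Tfh. Slc2a8, the gene of the intracellular carrier GLUT8, stood at 5.21 and 5.20 in Tfh and 3.49 to 4.13 in the cultured arrays, a difference of 1.50 (SE 0.14, adjusted p = 0.000238 in limma), or 2.83-fold. Slc2a9, whose product carries urate, was at 4.00 and 3.73 against 2.62 to 3.08, a difference of 1.08 (SE 0.10, adjusted p = 0.000212), which had to arise, since it passed the filter through the Tfh arrays alone. For both genes the Tfh arrays lay above all others, but after quantile normalization neither was called, at 0.15 and 0.57. The Slc2a9 difference fell under the fold threshold without Tfh replicate 1 (0.95). Slc2a6, which encodes GLUT6, was at 7.39 and 7.38 in Tfh, 4.90 and 5.72 in Th1, 7.32 and 6.61 in Th2, and 6.94 and 7.01 in Th17. The Th1 arrays were the lowest, and the difference from the mean, 0.97 (SE 0.30, adjusted p = 0.0271), was below the fold threshold. The pseudogene Slc2a4rg-ps was at 8.73 and 8.63 in Tfh and 4.13 to 4.69 elsewhere, a difference of 4.32 (SE 0.19).

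Of the amino acid carriers, Slc7a3 was measured above the filter level in the cultured arrays only. It encodes CAT3, a carrier of arginine, lysine and ornithine best known from neurons. Its level was 2.23 and 2.21 in Tfh, 9.41 and 6.32 in Th1, 8.89 and 8.43 in Th2, and 8.89 and 5.02 in Th17. The Tfh values lay under the filter level, the 6 others above it, and the Th1 and Th17 replicates were 3.09 and 3.86 apart. The difference from the mean of the cultured types was -5.61 (SE 1.20, adjusted p = 0.00697 in limma), or -6.45 relative to the median gene. As the filter was passed through the cultured arrays alone, the gene had to differ and this p is no support; the size depends on the background level of the arrays. The call ended without Tfh replicate 2 (adjusted p = 0.0502) and with the Tfh arrays averaged (0.0502).

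The other cationic amino acid carriers did not share this difference. Slc7a1, which encodes CAT1, was at 12.24 and 12.01 in Tfh, 11.49 and 11.67 in Th1, 12.08 and 11.74 in Th2, and 11.57 and 11.74 in Th17. The groups overlapped through Th2 replicate 1, and the difference was 0.41 (SE 0.13, adjusted p = 0.0354), under the fold threshold, with -0.20 after quantile normalization. Slc7a6, the gene of a light chain that exchanges cationic for neutral amino acids (y+LAT2), stood at 10.11 and 10.06 against 8.92 to 9.26 in the cultured arrays. Both Tfh arrays were the highest, by 0.96 (SE 0.12, adjusted p = 0.000706), again under the fold threshold, with -0.15 after quantile normalization.

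Slc7a2, the gene of CAT2, which supplies arginine in activated macrophages, was highest in the cultured arrays with the most signal from myeloid markers, but not in the Tfh arrays. It was at 4.21 and 4.20 in Tfh, 2.60 and 4.06 in Th1, 8.70 and 5.87 in Th2, and 6.10 and 3.61 in Th17. Th2 replicate 1 was highest, and the difference between Tfh and the mean was -0.96 (SE 0.97, adjusted p = 0.409). All 12 listed myeloid and dendritic cell markers passed the filter level in Th2 replicate 1 and Th17 replicate 1, with medians of 8.65 and 7.44. Their medians were 7.31 and 7.45 in Tfh (10 above in each array), 2.96 and 4.32 in Th1, 5.71 in Th2 replicate 2 and 4.81 in Th17 replicate 2. Their summed signal in replicates 1 and 2 was 15269 and 14972 in Tfh, 3371 and 4314 in Th1, 10679 and 3240 in Th2, and 6384 and 6104 in Th17. By this sum Th2 replicate 2, with Slc7a2 at 5.87, was the lowest of all arrays. Th17 replicate 2, with Slc7a2 at 3.61, was near Th17 replicate 1. The Tfh arrays thus had the highest sum and a Slc7a2 level like that of Th1 replicate 2. The part of such cells in the Slc7a2 values was not tested.

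Slc6a9 had the same pattern as Slc7a3, and Slc16a10 was called lower in Tfh. Slc6a9, which encodes the glycine carrier GlyT1, stood at 2.32 and 2.30 in Tfh, 7.87 and 5.09 in Th1, 8.34 and 6.59 in Th2, and 7.52 and 4.36 in Th17. As for Slc7a3, the Tfh values were under the filter level and replicate 1 exceeded replicate 2 in each cultured type. The difference was -4.32 (SE 1.10, adjusted p = 0.0139 in limma), and the other probe set gave -1.14; here too the gene had to differ, and the p is no support. Leaving out Tfh replicate 1 (adjusted p = 0.0788) or 2 (0.0796), or averaging the Tfh arrays (0.0796), ended the call. Slc16a10, the gene of the aromatic amino acid carrier TAT1, was at 4.12 and 3.79 in Tfh, 5.67 and 6.00 in Th1, 7.20 and 5.99 in Th2, and 7.68 and 4.99 in Th17. The groups did not overlap, and the other probe sets gave -2.29, -0.68 and -0.25. The difference was -2.30 (SE 0.73, adjusted p = 0.0305), and the call ended without Tfh replicate 1 (0.112), Tfh replicate 2 (0.152), Th1 replicate 1 (0.0535), Th1 replicate 2 (0.0612) or Th2 replicate 1 (0.0609), with the Tfh arrays averaged (0.130), and with the mean of its probe sets (-1.38, adjusted p = 0.0670).

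The carriers that were higher in Tfh were led by Slc43a2, which encodes LAT4, a sodium-independent carrier of large neutral amino acids. It stood at 8.89 and 8.81 in Tfh, 4.44 and 4.91 in Th1, 5.29 and 5.24 in Th2, and 5.13 and 5.49 in Th17. The cultured arrays lay close together and far under both Tfh arrays. The difference was 3.76 (SE 0.20, adjusted p = 3.18e-05 in limma), or 13.6-fold, and 2.32 after quantile normalization. Another probe set gave 2.79, and a further one, near the background, 0.14. Slc43a3, its relative, whose product carries purine nucleobases, was at 8.91 and 8.69 against 7.43 to 8.43, a difference of 0.78 (SE 0.28, adjusted p = 0.0464) that was under the fold threshold and -0.57 after quantile normalization.

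All 3 members of the Slc38a family that were called were higher in Tfh, with lysosomal carriers among them. Slc38a9, whose product senses arginine at the lysosome and passes that signal to mTORC1, stood at 9.27 and 9.59 in Tfh, 5.74 and 5.83 in Th1, 5.80 and 6.53 in Th2, and 5.56 and 7.09 in Th17. Both Tfh arrays were above all others, and Th17 replicate 2 was the highest of the cultured arrays. The difference was 3.34 (SE 0.44, adjusted p = 0.000919), or 10.1-fold, and 2.01 after quantile normalization. Of its 7 probe sets 6 gave 2.77 to 4.21, and the other, near the background, gave 0.35.

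Slc38a6, less well characterized, was at 8.77 and 8.69 in Tfh and 5.42 to 6.05 in the cultured arrays. The difference was 3.06 (SE 0.21), or 8.32-fold, and 1.61 after quantile normalization; a second probe set gave 1.29. Slc38a7, which exports glutamine from lysosomes, was at 6.48 and 6.66 in Tfh and 4.50 to 4.70 elsewhere. Its difference of 1.94 (SE 0.12, adjusted p = 5.9e-05) was called as deposited but was 0.27 after quantile normalization, where it was not called. Neutrophil markers were high in the same arrays as Slc43a2 and these Slc38a genes. The summed neutrophil signal was 69530 to 72367 in Tfh and 43.5 to 3745 in the cultured arrays. Of 7 measured B cell markers 6 passed the filter level in both Tfh arrays, and 5 or 6 did in each cultured array. Pax5 was near background in every array. The summed signal of the B cell markers was 1041 to 1056 in Tfh, 76.7 to 207 in Th1, 427 to 1236 in Th2 and 233 to 872 in Th17. It was thus highest in Th2 replicate 2 and not in the Tfh arrays. The part of such cells in these differences was not tested.

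The promoter of Slc38a7 is shown with that of Slc16a1 because these are the tested members whose 250 bases before the start hold CACGTG, the E-box that Myc and the lysosomal regulator TFEB bind (capitals). Slc38a7 is on the minus strand, chr8:95853492-95853741, and Slc16a1 on the plus strand, chr3:104638414-104638663, of GRCm38.p6 (RefSeq).
Slc38a7: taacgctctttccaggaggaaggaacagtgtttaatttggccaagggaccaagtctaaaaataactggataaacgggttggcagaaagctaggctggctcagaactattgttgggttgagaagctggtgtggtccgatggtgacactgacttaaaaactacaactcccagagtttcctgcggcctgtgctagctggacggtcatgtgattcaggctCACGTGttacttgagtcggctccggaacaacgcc
Slc16a1: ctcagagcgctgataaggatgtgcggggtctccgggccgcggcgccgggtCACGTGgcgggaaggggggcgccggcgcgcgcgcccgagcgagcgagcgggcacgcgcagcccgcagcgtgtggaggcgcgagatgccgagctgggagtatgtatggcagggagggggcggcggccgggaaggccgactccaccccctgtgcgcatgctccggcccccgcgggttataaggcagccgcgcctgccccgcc
RefSeq windows were found for 60 of the 83 members (81 windows), and for 24 of the 36 tested (30 windows). CACGTG occurred in 2 of the 30 windows (6.67%), against 6.02% of the 32851 windows of all genes. ACGTG, searched on both strands and contained in CACGTG, occurred in 8 of the 30 (26.7%) against 16.6%. A match describes letters only.

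The sodium-coupled glutamine carriers of the plasma membrane had high signals in every array. Slc38a1, the gene of SNAT1, stood at 12.30 and 12.28 in Tfh, 11.05 and 11.21 in Th1, 11.48 and 11.53 in Th2, and 11.40 and 11.14 in Th17. The Tfh arrays were the highest, by 0.99 (SE 0.10, adjusted p = 0.000354), just under the fold threshold, with 0.39 after quantile normalization and -0.21 with arrays shifted to the median of the tested genes. Slc38a2, the gene of SNAT2, was at 12.28 and 12.32 against 11.22 to 12.24, and its difference of 0.51 missed the threshold (adjusted p = 0.157). Its 2 other probe sets gave 1.37 and -0.68. Slc38a10 was at 9.80 and 9.89 in Tfh and 9.44 to 10.27 elsewhere, and its probe sets disagreed in sign, from -1.23 to 1.54. The difference of 0.047 (adjusted p = 0.694), uncalled as deposited, was called lower after quantile normalization (-1.05) and with the median of the tested genes (-1.15).

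The carriers most often used as signs of T cell activation were not called between Tfh and cultured cells as deposited, with a wide spread in the latter. Slc7a5, the gene of LAT1, which brings in leucine and other large neutral amino acids, stood at 10.20 and 10.10 in Tfh, 11.81 and 9.33 in Th1, 10.94 and 10.12 in Th2, and 11.08 and 9.46 in Th17. The Tfh arrays lay inside the range of the cultured ones, and the difference was -0.30 (SE 0.74, adjusted p = 0.727). Slc3a2, the gene of its heavy chain CD98, was at 11.50 ± 0.05 (SD, n = 2) in Tfh, against 11.37 ± 0.98, 11.37 ± 0.30 and 11.09 ± 0.70 in Th1, Th2 and Th17, a difference of 0.22 (SE 0.43, adjusted p = 0.659). Slc1a5, the gene of ASCT2, which exchanges glutamine for other neutral amino acids, was at 11.25 ± 0.10, 11.19 ± 0.29, 10.99 ± 0.09 and 10.83 ± 0.52 in the same order, a difference of 0.25 (SE 0.22, adjusted p = 0.342). The signs of the Slc3a2 and Slc1a5 differences turned with either shift of the arrays and with quantile normalization. With the median of the tested genes they were -0.97 (adjusted p = 0.0789 in limma) and -0.94 (0.00793), both under the fold threshold. With standard errors of this size a difference of the fold threshold could have been missed for Slc7a5 and Slc3a2.

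Slc7a11, the cystine importer xCT, whose cystine feeds glutathione synthesis, was not called either. It stood at 3.42 and 3.90 in Tfh, 6.57 and 3.77 in Th1, 7.77 and 5.73 in Th2, and 6.32 and 3.03 in Th17. Th1 replicate 2 lay between the Tfh arrays and Th17 replicate 2 below them, and the difference was -1.88 (SE 1.16, adjusted p = 0.192), with -0.32 from its other probe set. Slc1a4, the gene of ASCT1, a carrier of alanine, serine and cysteine, was at 6.98 and 6.86 in Tfh, 8.39 and 6.18 in Th1, 8.59 and 7.75 in Th2, and 8.33 and 5.91 in Th17. Replicate 2 of Th1 and of Th17 lay below Tfh, and the difference was -0.60 (adjusted p = 0.532), whereas the other probe sets gave -3.10 and -2.82. Slc6a6, the taurine carrier, was at 10.13 and 10.14 in Tfh and 9.59 to 10.59 in the cultured arrays around them, a difference of -0.01 (adjusted p = 0.971). It was called lower after quantile normalization (-1.05, adjusted p = 0.0128) and with arrays shifted to the median of the tested genes (-1.20, 0.00589), and as deposited its other probe sets gave values from -0.70 to 1.17.

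Among the monocarboxylate carriers, Slc16a1, the gene of MCT1, which passes lactate in both directions, had a difference whose call depended on the scaling. It was at 11.70 and 11.53 in Tfh, 12.20 and 12.35 in Th1, 11.77 and 12.01 in Th2, and 11.98 and 12.23 in Th17. The groups did not overlap, and the difference of -0.47 (SE 0.12, adjusted p = 0.0135) was under the fold threshold. It was called lower after quantile normalization (-1.15, adjusted p = 0.000506) and with arrays shifted to the median of the tested genes (-1.67, 0.000136), but not with the median of all probe sets (-0.86). Slc16a3, the gene of MCT4, the lactate exporter of glycolytic cells, was at 7.16 and 7.47 in Tfh, 8.56 and 6.63 in Th1, 5.73 and 6.06 in Th2, and 8.75 and 5.76 in Th17. Replicate 1 of Th1 and of Th17 lay above Tfh and the 4 others below it, and the difference was 0.40 (adjusted p = 0.695). Slc16a4, whose substrate is less certain, was at 7.10 and 7.01 in Tfh, 4.14 and 5.35 in Th1, and 3.82 to 4.22 in Th2 and Th17. Both Tfh arrays were above the rest, with a difference of 2.85 (SE 0.32, adjusted p = 0.000524 in limma), or 7.19-fold, and 1.21 after quantile normalization; a second probe set, near the background, gave -0.056.

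**Figure D3:**
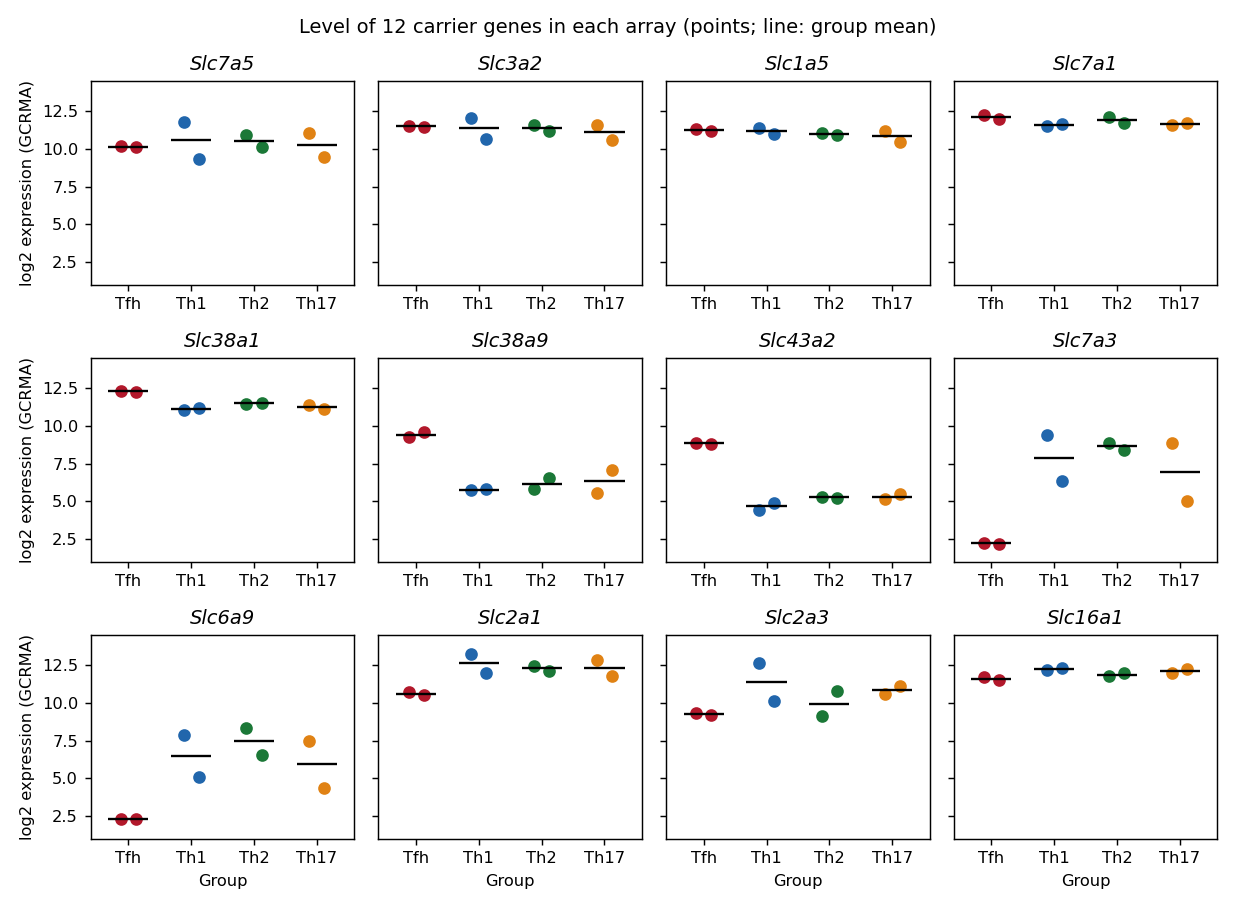
Level on the log2 scale of 12 carrier genes in each array (points) with the group mean (line), for Tfh, Th1, Th2 and Th17. Slc43a2 and Slc38a9 are separated upward in Tfh, Slc7a3, Slc6a9 and Slc2a1 downward, and the Tfh points of Slc7a5 lie inside the range of the cultured points.

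The comparisons of Tfh with each single type share the Tfh arrays, so they are set side by side and not counted as repeats. Against Th1, 11 members were called higher and 3 lower (background 42.8% and 6.16%). Against Th2 the counts were 9 and 4 (42.8% and 6.89%), and against Th17 they were 9 and 2 (41.8% and 6.17%). Among the lower calls were Slc7a3 against each type and Slc6a9 against Th1 and Th2. Slc2a9 was among the higher calls against Th1 and Th2. These 3 passed the filter only through the arrays where they were high, so they had to differ and support no count in any scaling. In all 4 scalings the counts were 4 and 3 (12.4% and 6.11%), 5 and 4 (13.0% and 6.86%), and 5 and 2 (11.6% and 6.13%). The split between higher and lower depended on the scaling. After quantile normalization it was 4 and 7 against Th1 (15.6% and 21.2%), 5 and 8 against Th2 (16.1% and 21.3%), and 5 and 10 against Th17 (14.0% and 20.3%). With a common median of all probe sets it was 8 and 4 (31.7% and 10.2%), 6 and 5 (32.6% and 10.6%), and 8 and 5 (29.7% and 9.91%) in the same order. With a common median of the tested genes it was 4 and 12 (14.4% and 28.5%), 5 and 15 (15.0% and 29.1%), and 5 and 11 (13.5% and 26.0%). Against Th1, Th2 and Th17 in turn the differences were 4.17, 3.58 and 3.54 for Slc43a2 (SE 0.24), 3.65, 3.27 and 3.10 for Slc38a9 (SE 0.53), and 3.21, 2.99 and 2.97 for Slc38a6 (SE 0.26). For Slc16a4 they were 2.31, 3.20 and 3.03 (SE 0.39), of which the first was not called after quantile normalization (0.59).

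Lower calls against single types were fewer, and each ended in fits that left out 1 array. Such a fit has fewer than the 4 residual degrees of freedom of the full fit. Every fit pools 1 spread over groups of unequal tightness. Within Tfh 11 tested genes differed by over 1 log2 unit, against 696 to 1435 within a cultured type. Slc7a3 against Th17 stayed at -4.74 without either Th2 array, and Slc16a10 against Th2 at -2.64 without either Th1 array. An ended call need not mean that the difference rested on that array. Slc7a3 and Slc6a9 passed the filter through the cultured arrays alone, so they had to be lower in Tfh against each type. Their p-values here are no support. For Slc7a3 the differences from Th1, Th2 and Th17 were -5.65 (adjusted p = 0.0168 in limma), -6.44 (0.0102) and -4.74 (0.0317), with an SE of 1.47. Each of these 3 calls ended without either Tfh array (adjusted p = 0.0513 to 0.113), the first also without Th1 replicate 1 (0.0746) and the second without Th2 replicate 1 (0.0501). The third also ended without Th17 replicate 1 (-2.81, adjusted p = 0.116), Th2 replicate 1 (0.0548) or Th2 replicate 2 (0.0544). For Slc6a9 they were -4.17 (adjusted p = 0.0361), -5.15 (0.0170) and -3.62 (0.0573, not called). Both of its calls ended without either Tfh array (0.0734 to 0.123), and they also ended without Th1 replicate 1 (-2.78, adjusted p = 0.158) and Th2 replicate 1 (0.0871), respectively. Slc2a1 differed by -2.00 (adjusted p = 0.0154), -1.68 (0.0283) and -1.70 (0.0278), with an SE of 0.51. The calls against Th2 and Th17 ended with the mean of all its probe sets (-1.35, adjusted p = 0.0766, and -1.54, 0.0523). All 3 calls ended without either Tfh array (0.0611 to 0.116), and without Th1 replicate 1 (0.0544) for the first, Th2 replicate 1 (0.117) or 2 (0.0702) for the second and Th17 replicate 1 (0.124) for the third. Slc16a10 was called against Th2 (-2.64, adjusted p = 0.0415), and this ended without any of the Tfh, Th1 and Th2 arrays (0.0590 to 0.178) and with the mean of its probe sets (-1.56, 0.0890).

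Some members were called against 1 or 2 types. Slc2a6 was called higher against Th1 (2.07, SE 0.36, adjusted p = 0.00371), while its differences from Th2 and Th17 were 0.42 and 0.41. Slc38a1 was called higher against Th1 (1.16) and Th17 (1.02), but the latter fell under the fold threshold without Th17 replicate 2 (0.89) and with the mean of its probe sets (0.91). Slc7a6 was called higher against Th1 (1.02), which fell under the threshold without Tfh replicate 1 (0.99) or Th1 replicate 1 (0.87), and with the mean of its probe sets (0.96). None of these 3 genes was called in these comparisons after quantile normalization. Whether a difference from Tfh was unequal between the cultured types is the comparison of those types themselves.

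Between the cultured types no carrier was called. In limma 0 of 36 members passed for Th1 against Th2, Th1 against Th17 and Th2 against Th17. Of all tested genes 0.349% were higher in Th1 and 0.895% in Th2, 0.0626% in Th1 and 0.0805% in Th17, and 0.483% in Th2 and 0.188% in Th17. At an unadjusted p under 0.05 the members numbered 7, 3 and 1, or 19.4%, 8.33% and 2.78%, against 15.7%, 9.72% and 13.5% of all tested genes. The smallest adjusted p between Th1 and Th2 was that of Slc38a10, at 9.55 and 9.44 in Th1 and 10.27 and 10.17 in Th2, a difference of -0.72 (adjusted p = 0.0674). Next came Slc2a6, lower in both Th1 than in both Th2 arrays (-1.65, adjusted p = 0.114), and Slc7a2 (-3.96, adjusted p = 0.204). Between Th1 and Th17 the leading members were Slc2a6 (-1.66, adjusted p = 0.239), Slc7a6os (0.62, 0.332) and Slc43a2 (-0.64, 0.471), and between Th2 and Th17 Slc38a10 (0.55, 0.144), Slc7a2 (2.44, 0.455) and Slc2a9 (-0.24, 0.459).

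Within the cultured types the 2 arrays often differed in these genes. Of the 36 members 12 differed by more than 1 log2 unit within Th1, 5 within Th2, 10 within Th17 and 0 within Tfh. Of all 11178 tested genes 1435, 696, 1339 and 11 did, in the same order. Replicate 1 was the higher one for 10 of the 12, 4 of the 5 and 9 of the 10 members. The direction was not counted over all tested genes, so it cannot be called particular to the carriers. Slc7a3, Slc6a9, Slc7a11, Slc1a4 and Slc7a5 were each higher in replicate 1 of Th1 by 3.09, 2.79, 2.80, 2.21 and 2.48, and of Th17 by 3.86, 3.16, 3.29, 2.42 and 1.63. In Th2 these gaps were 0.46, 1.76, 2.04, 0.83 and 0.82. Over all tested genes the replicate deviations correlated at 0.255 between Th1 and Th17 and at 0.268 between Th2 and Th17. Between Th1 and Th2 they correlated at 0.0044. Whether arrays of the same number share a run or batch was not tested. The 5 genes named here were picked after their values were seen.

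Genes of the amino acid response, which the kinase GCN2 and the factor ATF4 switch on when amino acids are short, had gaps in the same arrays. They too were picked after their values were seen. Asns, asparagine synthetase, was at 12.52 and 10.91 in Th1, 12.64 and 11.65 in Th2, 12.33 and 10.33 in Th17, and 8.29 and 8.45 in Tfh. Trib3, a target and brake of ATF4, was at 8.41 and 5.54, 9.31 and 7.98, 8.36 and 5.12, and 6.23 and 6.42, in the same order. Replicate 1 was again the higher one in each cultured type, and for Trib3 the Tfh arrays lay inside the cultured range. In the 250 bases before the Slc7a11 start, the letters TGATGNAA, the core of the element bound by ATF4 with C/EBP factors, occur in both directions, 66 and 47 bases before the start. The window is shown because Slc7a11 is the tested member that holds this motif (capitals; RefSeq, GRCm38.p6, minus strand, chr3:50443614-50443863).
Slc7a11: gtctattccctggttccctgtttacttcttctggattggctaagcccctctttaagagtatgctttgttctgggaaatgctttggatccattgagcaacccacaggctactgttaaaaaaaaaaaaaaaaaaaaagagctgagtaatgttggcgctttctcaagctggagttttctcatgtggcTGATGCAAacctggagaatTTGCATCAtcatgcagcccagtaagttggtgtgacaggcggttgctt
The motif was found in 1 of the 30 windows of tested members and in 3.45% of all windows, with both strands searched.

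Genes that act with these carriers were followed in 4 lists. Of 28 tested genes of amino acid sensing and mTORC1, 11 were higher in Tfh when compared with the cultured mean (43.7% of all tested genes were), 1 was lower (6.66% of all) and 16 were neither, with 3 and 1 in all 4 scalings (12.7% and 6.63% of all). Their median difference was 0.92, against 0.84 for all genes. Sesn1, a leucine-linked inhibitor of mTORC1, was higher by 2.26 (SE 0.16), Tsc1, a brake on the mTORC1 activator Rheb, by 1.97 (SE 0.16), and Wdr59, a subunit of the GATOR complex, by 1.99 (SE 0.20); of these Sesn1 held in all 4 scalings. The shares over all genes apply to each list. Of 24 regulators of nutrient carriers 11 were higher, 1 was lower and 12 were neither, with 3 and 1 in all 4 scalings and a median of 0.87. Klf2, a quiescence factor, was higher by 6.08 (SE 0.35) and Mlxip, a glucose-sensing factor, by 1.88 (SE 0.18), while Arrdc4, an arrestin that lowers glucose uptake, was lower by 3.78 (-3.78, SE 0.33). Arrdc4 stood at 3.13 and 3.12 in Tfh, at the filter level, so the size of its difference depends on the background level of the arrays.

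Enzymes that use the carried nutrients were called in both directions. Of 26 tested, 4 were higher (43.7% of all genes), 7 were lower (6.66%) and 15 were neither, with 2 and 7 in all 4 scalings (12.7% and 6.63%), and the median was -0.09. Cth (2.63 and 2.60 in Tfh) passed the filter through the cultured arrays alone. Arg1 (2.07 and 2.05 in Tfh) passed it through the Th2 and Th17 arrays alone. A lower call of either gene is therefore no support for the count. Gclc, which makes the first bond of glutathione, was at 12.01 and 12.04 in Tfh and 8.85 to 9.67 in the cultured arrays, 2.77 higher (SE 0.16). Odc1, which starts polyamine synthesis from ornithine, was 1.52 higher (SE 0.13), and the glycolytic enzyme gene Pgk1 differed by -1.55 (SE 0.12). Of 23 other carriers and partner proteins 8 were higher, 2 were lower and 13 were neither (43.7% and 6.66% of all genes were higher and lower), with 2 and 2 in all 4 scalings and a median of 0.81. Ctns (5.60 and 5.59 in Tfh) was above the filter level only in the Tfh arrays and in Th17 replicate 2 (3.55). It would not have been tested without the Tfh arrays, so a higher call of it is no support for the count. Slc36a1, a lysosomal exporter of small amino acids, was at 7.07 and 7.18 in Tfh and 3.14 to 3.86 in the cultured arrays, 3.77 higher (SE 0.17). The folate carrier gene Slc19a1 differed by -2.00 (SE 0.14) and Mfsd12, a lysosomal cysteine importer, by -3.46 (SE 0.28). Mfsd12 stood at 3.63 and 3.52 in Tfh. Slc36a1 in the cultured arrays and Mfsd12 in Tfh were near the filter level. The sizes of their differences thus depend on the background level of the arrays. After quantile normalization the medians of the 4 lists were -0.36, -0.18, -0.71 and -0.62, against -0.17 for all genes.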

How the data were processed

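Per the labels, RNA was extracted with Trizol, labelled with biotin by in vitro transcription and hybridized to Affymetrix mouse arrays. The deposited values are log2 levels, summarized by the authors with GCRMA, per the submitters' processing notes. GCRMA corrects background by probe sequence; its version and the set of arrays normalized together are not given in the sources used here. Precision is limited by the number of arrays.

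Of 45101 probe sets 34945 had 1 gene symbol in the platform annotation, 932 several, 9160 none and 64 were controls. The set whose mean over the 8 arrays was highest stood for each of 18193 genes. Tests used limma 3.58.1 in R 4.3.3 (1 coefficient per group, eBayes with a trend, two-sided) over 11178 genes, with Benjamini-Hochberg adjustment over all of them. The fit was also run on simulated data that gave every group the same spread for a gene. That run is therefore no check of the unequal spread between the groups here. SE is the standard error of the fit, and SD is that of a group (n = 2). Values of single probes of different genes were not compared. Named genes were 16 carriers of activated T cells, called members (up to 8 each way against the mean, 5 against 1 type), the 3 members with the smallest adjusted p where none was called, the 3 such genes of each list, and any tested member by family; others are said to be picked after their values were seen. The members, lists and tests were chosen with earlier results of these data known. Alternatives were other scalings, filters, probe set rules and variance models, no minimum fold, the replicate number as a block, averaged Tfh arrays, fewer groups and each array left out. The shift to the median of the tested genes was added after seeing the data. Figures used Python 3.11.15 with matplotlib 3.10.9.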

Additional observations from a re-analysis of the deposited data

How the results depend on the processing

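Calls of higher carriers moved mainly with the scaling of the arrays, and calls of lower carriers also with the Tfh replicates. Under quantile normalization the members called higher in Tfh numbered 5 against the mean, 4 against Th1, 5 against Th2 and 5 against Th17, and those called lower 9, 7, 8 and 10. With arrays shifted to the same median of the tested genes the higher calls were 5, 4, 5 and 5, and the lower calls 12, 12, 15 and 11. With arrays shifted to the same median of all probe sets the lower calls against Th17 were 5. With members required above the filter in all 8 arrays the lower calls were 2 against the mean, 1 against Th1 and 2 against Th2. That setting leaves out Slc7a3 and Slc6a9, which had to be lower in Tfh and support no lower count. With no minimum fold the higher calls against the mean were 15, and the lower calls 5 against Th1 and 4 against Th17. With the Tfh arrays averaged as 1 replicate the lower calls were 0 in each of the 4 comparisons in limma. The cause was not tested. The share over all tested genes was not computed for the filter, fold, averaging, left-out array and replicate block settings. Counts under those settings therefore say nothing particular to the carriers. Leaving out 1 array at a time gave 8 to 12 higher and 0 to 4 lower calls against the mean, 10 to 11 and 0 to 4 against Th1, 9 to 10 and 0 to 4 against Th2, and 8 to 12 and 0 to 4 against Th17. Between Th1 and Th2 it gave 0 to 1, the 1 without Th1 replicate 2.

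The sign of small differences from the mean turned with the scaling. With arrays shifted to the same median it was -0.14 for Slc1a5 and -0.17 for Slc3a2. After quantile normalization it was -1.19 for Slc16a3, -0.54 for Slc1a5, -0.081 for Slc38a2, -0.51 for Slc3a2, -0.57 for Slc43a3, -0.20 for Slc7a1, -0.15 for Slc7a6 and -0.064 for Slc7a6os. With arrays shifted to the median of the tested genes it was -0.79 for Slc16a3, -0.94 for Slc1a5, -0.11 for Slc2a9, -0.21 for Slc38a1, -0.68 for Slc38a2, -0.97 for Slc3a2, -0.41 for Slc43a3, -0.79 for Slc7a1 and -0.24 for Slc7a6. Against Th1, that shift gave -0.012 for Slc2a9, -0.045 for Slc38a1 and -0.19 for Slc7a6, and quantile normalization -0.086 for Slc7a6. Against Th2, Slc2a9 was at -0.069 with that shift and Slc2a8 at -0.047 after quantile normalization, and against Th17 Slc38a1 was at -0.14 with that shift. The mean of all probe sets gave 0.11 for Slc6a6. Single arrays turned Slc6a6 (-0.15 to 0.12; above 0 without replicate 1 of Th1, Th2 or Th17), Slc7a5 (-0.72 to 0.11; above 0 without Th1 replicate 1), Slc3a2 (-0.011 to 0.45; below 0 without Th1 replicate 2) and Slc16a3 (-0.10 to 0.90; below 0 without Th17 replicate 2). The cause of these changes was not tested.

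Over the tested genes the deviations of same-numbered replicates correlated at 0.255 between Th1 and Th17 and at 0.268 between Th2 and Th17. The other pairs of groups gave -0.0018 to 0.042. Whether arrays of the same number share a run or batch was not tested. With the number as a replicate block the lower calls were 4 against Th17, and no other count of member calls moved by more than 1.5 times. With 2 arrays a group, a member that was not called may still differ.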
